A study of Mus musculus with 14 samples.

Results

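The 35 type I interferon response genes described here are transcripts that cells make after interferon alpha or beta binds its receptor. They were taken by gene symbol from a table of 24116 mouse genes: signalling factors that carry the interferon signal (Stat2, Irf9, Irf7) or hold it back (Usp18), the ISG15 and ADP-ribosylation genes (Isg15, Herc6, Dtx3l, Parp9, Parp14), sensors of foreign RNA or DNA (Ifih1, Ddx58, Dhx58, Zbp1, Eif2ak2), the oligoadenylate synthetase family (Oas1a, Oas2, Oas3, Oasl1, Oasl2), antiviral effectors (Ifit2, Ifit3, Mx1, Mx2, Rsad2, Cmpk2, Bst2, Ifitm3, Samd9l, Trim30a) and other induced genes (Rtp4, Xaf1, Ifi27l2a, Ifi44, Ifi35, Lgals3bp). All 35 were in the table, and 35 of 35 were among the 15637 genes that reached 10 normalized counts in 3 or more of the 14 libraries, which were the genes tested. Several members share sequence or a locus with another one, so they are not independent: 13 of the 35 have another member within 100 kb.

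RNA was read from microdissected ventral spinal cord of mice 5 days after an injection of LPC (lysophosphatidylcholine), which dissolves myelin around axons at the site of injection. Lesion tissue and distal tissue away from it were collected from 2 genotypes. Ablated mice were Cx3cr1-CreER with Rosa26-iDTR+/-, in which tamoxifen switches on a diphtheria toxin receptor in cells that express Cx3cr1. In the cord these are mainly microglia, its own tissue macrophages, but other macrophages and monocytes also express Cx3cr1. Non-ablated mice were Cx3cr1-CreER with Rosa26-iDTR-/-, and so carried the recombinase without the receptor. Tamoxifen for 3 days, LPC 4 to 6 weeks later and diphtheria toxin every day until collection were common to all groups, so none of the libraries is untreated or uninjured cord. The groups were ablated lesion (libraries 8, 10, 12 and 14, n = 4), non-ablated lesion (libraries 2, 4 and 6, n = 3), ablated distal (libraries 7, 9, 11 and 13, n = 4) and non-ablated distal (libraries 1, 3 and 5, n = 3). Tissue of 3 to 5 mice, males and females together, was pooled for each library. Age labels ran from 8 to 15 months in ablated and from 2 to 7 months in non-ablated libraries, 1 month more with each library number. Whether these are true ages is not known, and age as labelled cannot be told apart from genotype.

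When type I interferon binds the receptor made of IFNAR1 and IFNAR2, the kinases JAK1 and TYK2 phosphorylate STAT2. With IRF9 it forms part of the complex ISGF3, which binds interferon-stimulated response elements in the promoters of its target genes. IRF7, itself a target, drives more interferon to be made, and USP18 and SOCS1 hold the signal back. In the central nervous system microglia, astrocytes and infiltrating leukocytes can all mount this response, and a subset of microglia with raised interferon genes is known from demyelinated and ageing tissue.

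The element that ISGF3 binds is built on a pair of GAAA blocks. Promoter windows from 250 bases upstream to 50 bases past the start, taken from RefSeq (GRCm38.p6), were found for 25 of the 35 genes and searched on both strands for a 10-base core, GAAA followed by any 2 bases and GAAA again. It was present in 12 of those 25 genes (48%), against 3.79% of the 12371 tested genes with a window and 3.99% of all 27025 genes with one. Overlapping matches were counted separately, as in Isg15, which held 3. In 8 genes a match lay wholly upstream of the start. These 8 are printed to show the matched sequence, which not all of the 25 genes hold. The genes were chosen by symbol and not by this sequence. They were chosen as interferon response genes, however, so the excess of the core is not independent of that choice. Each is given 5′ to 3′ on the strand of its gene with up to 30 bases on either side. Capitals mark matches that lie wholly within the printed stretch. They read TTTC, 2 bases and TTTC where the match is on the opposite strand. Ifit3 has a further match at -156 to -147 from the start, and the end of it opens the printed stretch in lower case.
Stat2: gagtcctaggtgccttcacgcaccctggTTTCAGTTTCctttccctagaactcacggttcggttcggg
Isg15: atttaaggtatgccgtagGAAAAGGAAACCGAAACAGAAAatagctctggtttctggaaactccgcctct
Oas1a: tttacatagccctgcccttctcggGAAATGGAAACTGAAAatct
Oas3: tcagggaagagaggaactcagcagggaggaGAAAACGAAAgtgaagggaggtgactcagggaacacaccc
Ifit3: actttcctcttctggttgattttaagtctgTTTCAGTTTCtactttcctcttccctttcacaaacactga
Rsad2: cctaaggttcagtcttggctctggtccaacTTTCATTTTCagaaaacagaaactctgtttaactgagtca
Bst2: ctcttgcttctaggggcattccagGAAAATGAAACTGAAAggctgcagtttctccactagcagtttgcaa
Trim30a: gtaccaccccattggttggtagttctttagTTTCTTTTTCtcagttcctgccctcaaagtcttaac
On GRCm38.p6 these lie at chr10:128270248-128270315 (plus strand) for Stat2, chr4:156200845-156200914 (minus) for Isg15, chr5:120907526-120907569 (minus) for Oas1a and chr5:120777695-120777764 (minus) for Oas3. The other 4 lie at chr19:34583377-34583446 (plus) for Ifit3, chr12:26456533-26456602 (minus) for Rsad2, chr8:71537557-71537626 (minus) for Bst2 and chr7:104465194-104465259 (minus) for Trim30a. A match describes the letters of the window and is not a measured binding site.

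The libraries held 23601763 to 30844575 reads and 15949 to 17945 genes with a read, so depth was similar throughout. Values are the authors' normalized counts, in which each library was divided by its own size factor. They are not divided by gene length, so levels are compared between groups and not between genes. Cx3cr1, the gene whose promoter drives the recombinase, had 155, 239.5, 212 and 336 normalized counts in ablated lesions, against 3892, 3657 and 4717 in non-ablated lesions. In distal tissue it had 90.2, 21.7, 81.2 and 128 in ablated libraries, against 864, 1361 and 510.1 in non-ablated libraries, and the groups did not overlap in either region. Of 11 homeostatic microglia markers, 8 were above 0 in each group, and P2ry12, P2ry13 and Gpr34, defining markers of resting microglia, were listed at 0 in all 14 libraries, so the label of microglia rests on the other 8. Which counter and annotation were used is not stated, so a 0 throughout need not mean that these genes were not expressed.

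Certain pools stood apart in the genes described here. Non-ablated distal library 1 was the lowest of its 3 libraries in 35 of 35 members (31.3% of all genes tested), and library 5 was the highest in 30 (37.3%). Among non-ablated lesions, library 2 was the lowest in 32 (27.2%) and library 6 the highest in 23 (37.5%). The mean of log2(normalized count + 1) over the 35 genes was 7.38, 10.00 and 10.95 in non-ablated distal libraries 1, 3 and 5. Markers of infiltrating monocytes followed the same order, with a mean log2 level of 4.92, 7.01 and 10.09, and so did T and NK cell markers, with 0.82, 2.57 and 5.02. Pan-macrophage markers did not, at 9.50, 9.96 and 9.83. Non-ablated lesion library 6 also had a T and NK cell marker level of 6.03, against 2.29 and 2.75 in libraries 2 and 4. The part of infiltrating cells in these differences was not tested.

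**Figure D1:**
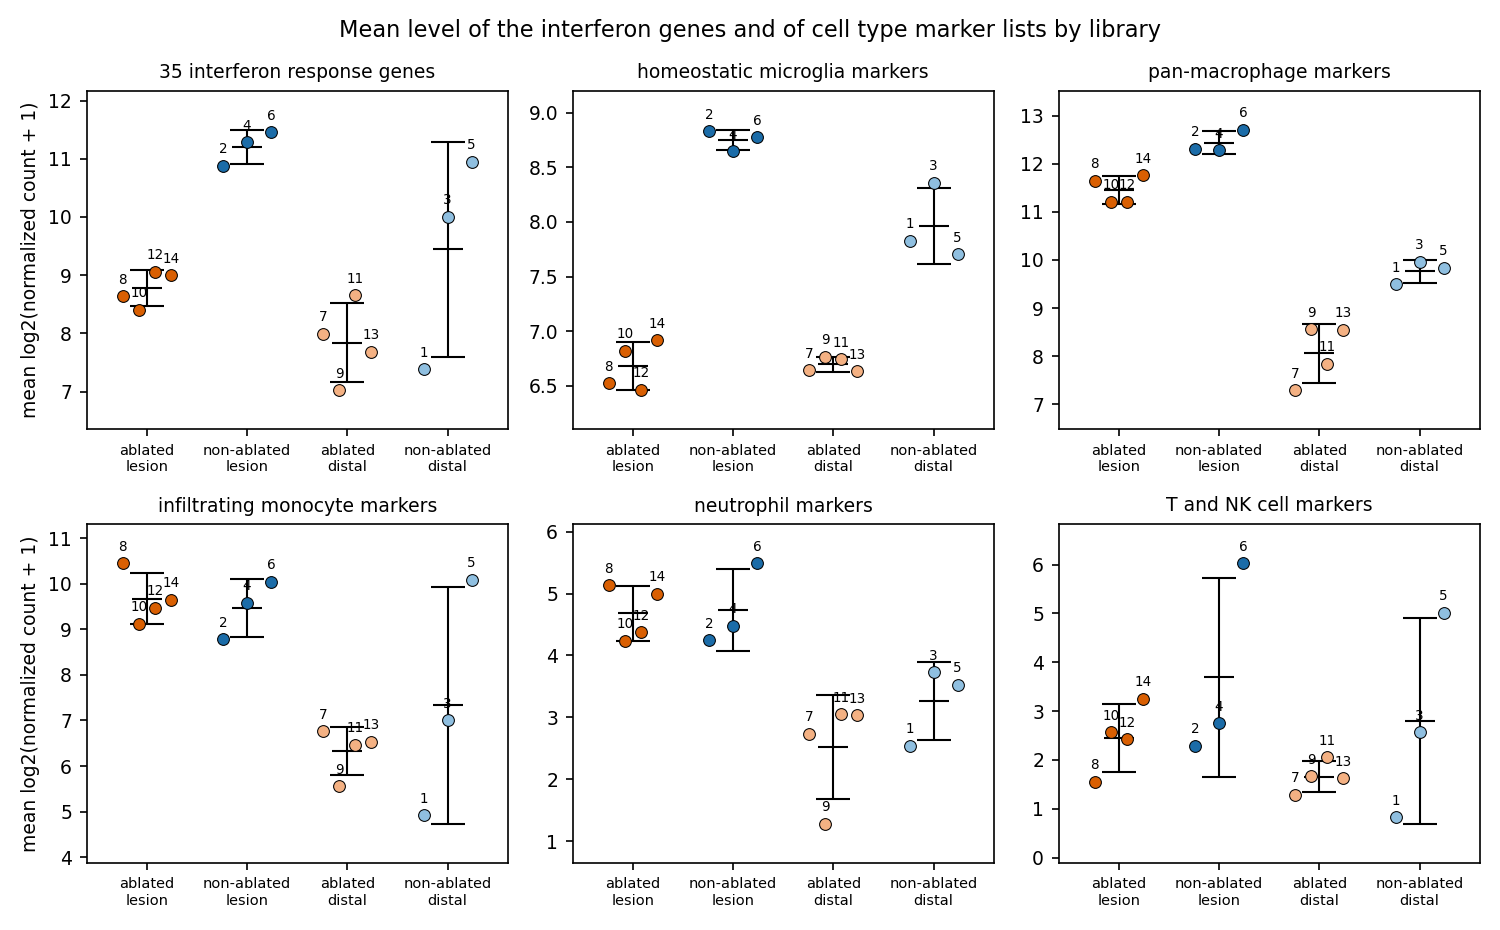
Mean log2(normalized count + 1) per library over the 35 interferon response genes and over 5 lists of cell type markers, by group. The microglia panel averages 11 genes, 3 of them at 0 in every library. Points are libraries labelled with their number, and bars give the group mean ± SD. The interferon genes lie between 8.41 and 9.06 in the 4 ablated lesion libraries and between 10.88 and 11.46 in the 3 non-ablated lesion libraries, while non-ablated distal libraries spread from 7.38 to 10.95.

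The first comparison asked how the interferon response of the demyelinated lesion differed in mice whose microglia had been targeted. All 35 genes had lower fitted levels in ablated than in non-ablated lesions (48.7% of all genes tested did), with a median log2 fold change of -2.35, where the median over all genes tested was 0.01. The least difference was that of Irf9 (-1.03) and the greatest that of Irf7 (-4.26). In 33 of the 35 genes every ablated lesion library lay below every non-ablated one, a pattern found in 8.36% of all genes tested. Bst2 and Ifitm3, both membrane proteins that restrict enveloped viruses, were the 2 genes whose groups overlapped. In a pool of tissue, fewer responding cells and less interferon-driven RNA per cell cannot be told apart.

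Of these genes, 4 passed an adjusted p of 0.05 in the limma fit over all 4 groups, namely Rtp4, Xaf1, Mx2 and Trim30a, all lower in ablated lesions, where 0.262% of all genes tested were called lower. A further 26 had an unadjusted p under 0.05 in the lower direction, which makes 30 of 35, against 3.41% of all genes tested. The spread in that fit is shared by the 4 groups, and for these genes it was wider in the distal pools. Within-group SDs of the log2 values had a median over the 35 genes of 0.50 in ablated lesions, 0.25 in non-ablated lesions, 0.96 in ablated distal tissue and 1.56 in non-ablated distal tissue, against 0.40, 0.24, 0.66 and 0.53 over all genes tested. When the 7 lesion libraries alone were fitted, the median standard error of the 35 genes was 0.30 in place of 0.75, and 32 of the 35 were called lower, where 2% of all genes tested were. Bst2, Ifitm3 and Ifi35 were the 3 not called there.

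**Figure D2:**
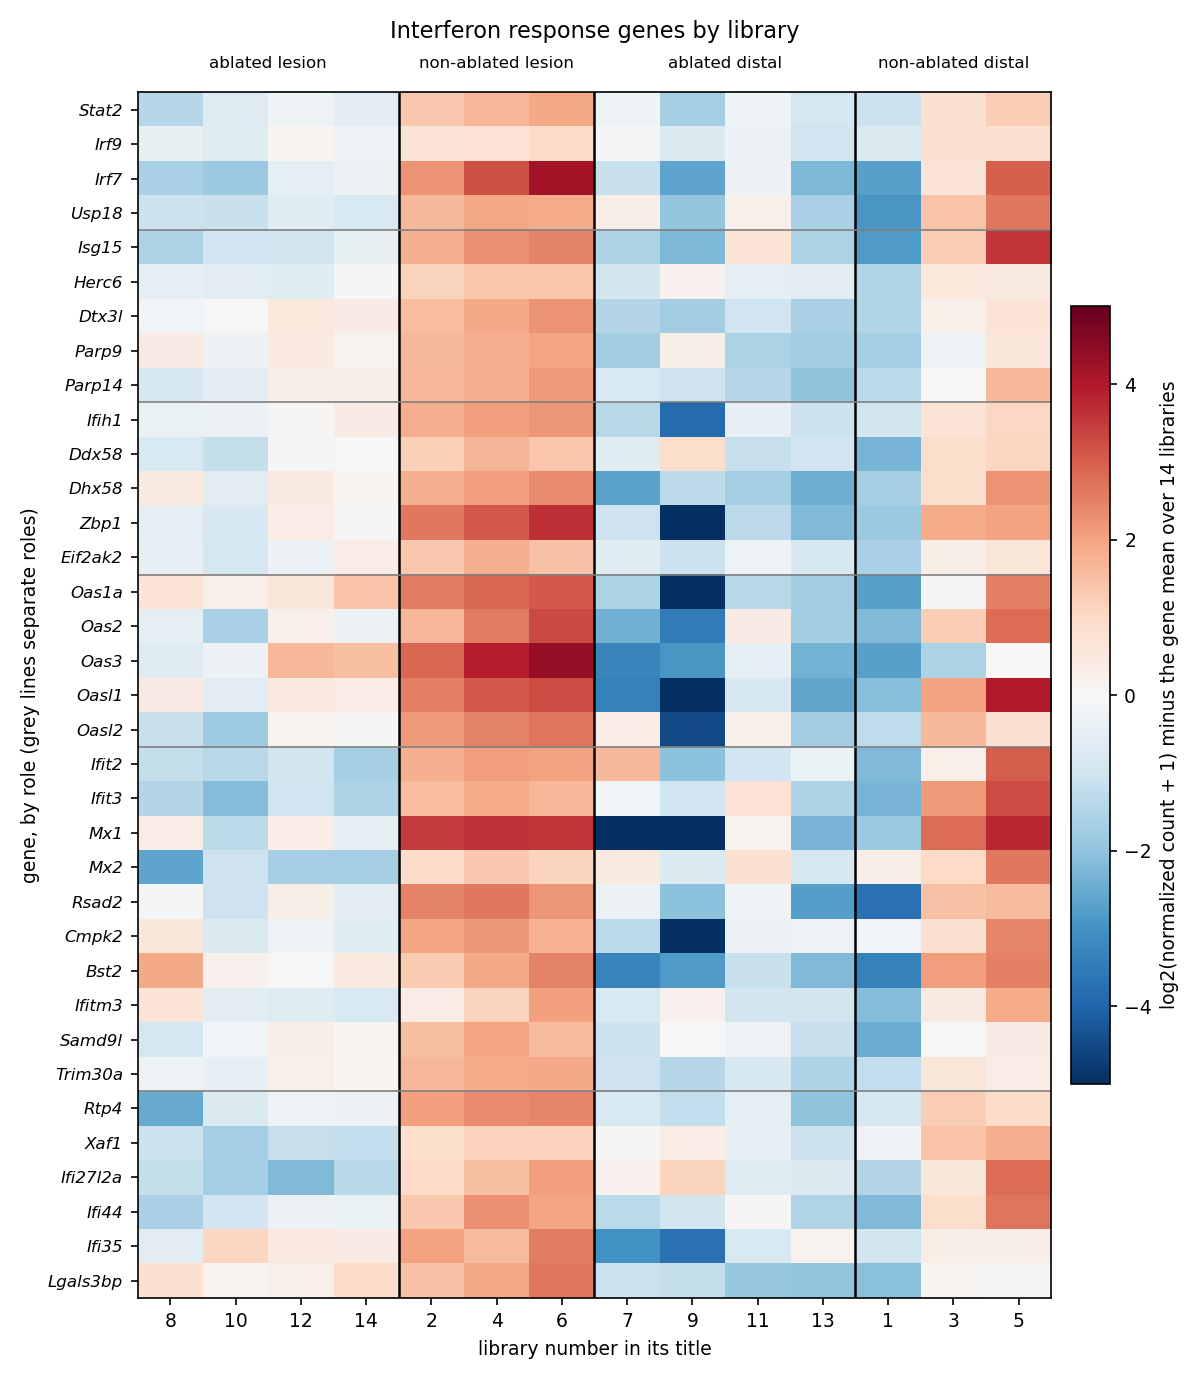
Level of each of the 35 genes in each of the 14 libraries, as log2(normalized count + 1) minus the gene's mean over the libraries, with the colour scale ending at -5 and 5. Rows are grouped by role and columns by group. The 3 non-ablated lesion libraries are above the gene mean nearly throughout, the 4 ablated lesion libraries are mostly below it, and non-ablated distal libraries 1 and 5 lie at opposite ends.

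Rtp4 encodes a receptor transport protein that also restricts RNA viruses (chr16:23520219-23614222 on GRCm38.p6). It had 67.6, 236, 342 and 318 normalized counts in ablated lesions, against 1604, 1998 and 2128 in non-ablated lesions. The highest ablated library was far below the lowest non-ablated one, and library 8 was lower than the other 3 ablated libraries. The log2 fold change was -3.21 ± 0.58 (SE, adjusted p = 0.0329, limma). Its annotated span overlaps that of Masp1, so part of its reads could belong to that gene.

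Xaf1, the partner of the apoptosis inhibitor XIAP (chr11:72301461-72313733), had 352, 226, 328 and 311 normalized counts in ablated lesions and 1338, 1628 and 1642 in non-ablated lesions. Both groups were tight and did not overlap. The log2 fold change was -2.35 ± 0.43 (SE, adjusted p = 0.0329, limma).

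Mx2, from the family of dynamin-like GTPases that trap viral components (chr16:97536081-97560901), had 66.4, 200.4, 131 and 129 normalized counts in ablated lesions. Non-ablated lesions had 775, 1059.8 and 889, all above the ablated ones. The log2 fold change was -2.87 ± 0.54 (SE, adjusted p = 0.0439, limma). RefSeq lists Mx1 and Mx2 as transcribed pseudogenes on the reference strain, and reads may be shared between these related copies.

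Trim30a, a tripartite motif protein that dampens Toll-like receptor signalling in mice (chr7:104409025-104465193), had 1205, 1076, 1738 and 1523 normalized counts in ablated lesions, against 4489.8, 5190.5 and 5339 in non-ablated lesions. The groups lay well apart, with a log2 fold change of -1.87 ± 0.36 (SE, adjusted p = 0.0496, limma). Related Trim30 copies next to it may share reads. These 4 calls are narrow: leaving out any 1 of the 7 lesion libraries ended them all, except that Rtp4 was still called without ablated lesion library 14. In those 7 fits few genes were called lower at all, from 0.032% to 0.179% of all genes tested. None of the 4 was called with the age label as a covariate, where 0.0128% of all genes tested were called lower. The same held without non-ablated distal library 5 and non-ablated lesion library 6 together, where 0.0448% were. Distal libraries counted through the shared spread. Without non-ablated distal library 1, 12 of the 35 were called lower in lesions (0.301% of all genes tested). There were 7 without non-ablated distal library 5 (0.307%) and 2 without ablated distal library 7 (0.249%). The direction of all 35 genes held with any 1 library left out, and their median ranged from -2.44 to -2.21.

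**Figure D3:**
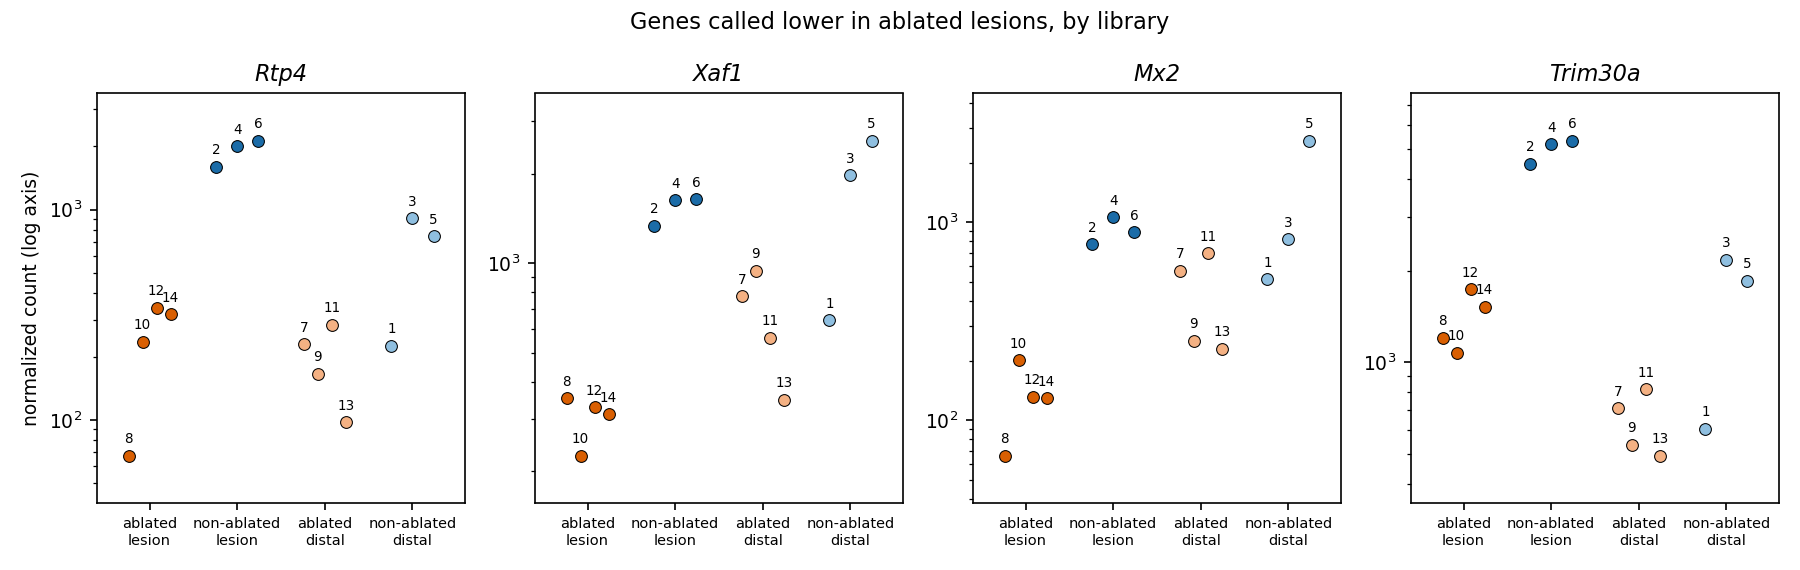
Normalized counts on a log axis of the 4 genes called lower in ablated lesions, by group, with 1 point per library labelled with its number. In lesions the 4 ablated libraries lie below the 3 non-ablated libraries in every panel, and in distal tissue non-ablated library 1 lies among the ablated libraries.

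The signalling factors had a median log2 fold change of -2.52 in lesions over 4 genes, of which none passed the adjusted test and 4 of 4 had separate groups. For these counts and those of the roles below, 8.36% of all genes tested had separate and lower groups and 0.262% were called lower. Stat2, the signal transducer that IRF9 binds in ISGF3, had 654, 1145, 1475 and 1218 normalized counts in ablated lesions, against 4560.1, 5549.7 and 6829 in non-ablated lesions. Its log2 fold change was -2.37 ± 0.49 (SE, adjusted p = 0.0626, limma). Irf7, the master factor for interferon alpha production, had 230.4, 199, 526 and 581 in ablated lesions and 3441, 6536 and 12877 in non-ablated lesions. The non-ablated libraries of Irf7 differed among themselves more than those of Stat2, and its log2 fold change of -4.26 ± 1.00 had an adjusted p of 0.115 (limma). Both were called lower by DESeq2 on the recovered reads, which called 22 of the 35 and 1.09% of all genes tested lower. Neither was called by edgeR, which called Trim30a, Rtp4 and Xaf1 and 0.269% of all genes tested lower. Usp18, the protease that removes ISG15 and blocks the receptor, stood at -2.68 ± 0.95, and Irf9, the DNA-binding part of ISGF3, at -1.03 ± 0.34 (log2 fold change ± SE).

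In the ISG15 and ADP-ribosylation group the median was -1.72 over 5 genes, with separate groups in 5 of 5 and none called. Dtx3l, a ubiquitin ligase that pairs with PARP9, had 473, 522, 749 and 699 normalized counts in ablated lesions, against 1532, 1972 and 2491 in non-ablated lesions. Herc6, the ligase that attaches ISG15 in mice, had 259, 249.9, 238 and 334 in ablated lesions and 781, 948 and 929 in non-ablated lesions. For both, the lowest non-ablated library was well above any ablated one, and their log2 fold changes were -1.71 ± 0.42 (SE, adjusted p = 0.145) for Dtx3l and -1.72 ± 0.44 (SE, adjusted p = 0.166) for Herc6 by limma. Isg15 itself, a ubiquitin-like modifier, stood at -3.11 ± 1.07 (SE, adjusted p = 0.383, limma), and with the lesion libraries alone its error was 0.27 and its adjusted p 0.000551. Dtx3l and Parp9 overlap at their ends and start next to each other, and Parp14 is their neighbour, so these 3 are 1 locus.

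The nucleic acid sensors had a median of -1.98 over 5 genes, again with 5 of 5 separate and none called. Eif2ak2, the kinase PKR that stops translation on double-stranded RNA, had 372, 275, 407 and 634 normalized counts in ablated lesions, against 1266, 1735 and 1369.9 in non-ablated lesions. Its log2 fold change was -1.84 ± 0.46 (SE, adjusted p = 0.149, limma). Zbp1, a sensor of Z-form nucleic acid that can trigger necroptosis, had 343, 271, 605 and 492 in ablated lesions and 2896, 3979 and 5907 in non-ablated lesions. The gap between its groups was wider than for Eif2ak2, but with a log2 fold change of -3.32 ± 1.06 (SE) the adjusted p was 0.317 (limma), against 0.000827 with the lesion libraries alone. The RNA helicases Ifih1 (MDA5), Ddx58 (RIG-I) and Dhx58 (LGP2) lay between -2.06 and -1.94.

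The oligoadenylate synthetases, which make the second messenger that activates RNase L, had a median of -3.05 over 5 genes, with 5 of 5 separate and none called. Oas3 had 20.04, 26.3, 104 and 92.5 normalized counts in ablated lesions, against 244, 507 and 671 in non-ablated lesions. Oasl2 had 303, 192, 770.1 and 651 in ablated lesions and 3006, 3741 and 4387 in non-ablated lesions. In both genes ablated libraries 12 and 14 were higher than libraries 8 and 10. The log2 fold changes were -3.17 ± 0.85 (SE, adjusted p = 0.196) for Oas3 and -3.15 ± 0.99 (SE, adjusted p = 0.311) for Oasl2 by limma. The Oas1 copies and the Oasl pair are close relatives, and reads split between them are uncertain.

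Among the 10 antiviral effectors the median was -2.49, with Mx2 and Trim30a called and 8 of 10 separate. Ifit2 and Ifit3, which bind foreign RNA ends, stood at -3.24 ± 0.95 and -3.23 ± 0.94, and Rsad2 (viperin) and its neighbour Cmpk2 at -2.78 ± 1.01 and -2.20 ± 1.09 (log2 fold change ± SE). Bst2 (tetherin) had 6654, 2083, 1803 and 2477 normalized counts in ablated lesions, against 4445, 6587 and 9978 in non-ablated lesions, so that ablated library 8 overlapped with the non-ablated range. Ifitm3 had 23776, 10472, 9841 and 9008 in ablated lesions and 19782, 32972 and 62249 in non-ablated lesions, and library 8 again made the overlap. That library had an infiltrating monocyte marker level of 10.45, against 9.12 to 9.64 in the other 3 ablated lesion libraries; the part of those cells in the overlap was not tested.

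Of the 6 other induced genes, Rtp4 and Xaf1 were called and 6 of 6 were separate, with a median of -2.50. Lgals3bp, a secreted glycoprotein, was the least different (-1.48 ± 0.46), and Ifi27l2a, a small interferon-induced protein, stood at -3.13 ± 0.75 (log2 fold change ± SE).

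Some lists of cell type markers, but not all, were also lower in ablated lesions. The mean log2 level of the 8 homeostatic microglia markers above 0 was 8.89 to 9.51 in ablated and 11.89 to 12.14 in non-ablated lesions, and their summed counts were 26750 to 70530 in ablated and 115600 to 141100 in non-ablated lesions. Pan-macrophage markers, 12 of 12 detected, were at 11.20 to 11.76 in ablated and 12.28 to 12.71 in non-ablated lesions. Infiltrating monocyte markers, 7 of 7 detected, overlapped, at 9.12 to 10.45 in ablated and 8.79 to 10.04 in non-ablated lesions. Plasmacytoid dendritic cell markers, a list for cells that can make much type I interferon, were at 3.64 to 5.04 in ablated and 5.50 to 6.10 in non-ablated lesions. Of the 5 genes, Siglech is shared with the microglia list, Klk1 was above 0 in only 2 libraries and Ly6d reached 10 normalized counts in 2. Their summed counts overlapped, at 584 to 1166 in ablated and 987.9 to 1426 in non-ablated lesions. This list therefore says little about that cell type. B cell markers were low in both, at 1.52 to 1.96 in ablated and 2.24 to 3.17 in non-ablated lesions, with Ms4a1 at 0 throughout. Ranges also overlapped for neutrophil (4.24 to 5.13 in ablated, 4.24 to 5.49 in non-ablated) and T and NK cell markers (1.56 to 3.25, 2.29 to 6.03). Endothelial markers overlapped too (8.85 to 9.32, 8.55 to 9.33). Astrocyte, oligodendrocyte and neuron markers had higher means in ablated lesions (12.4, 14.7 and 8.8) than in non-ablated lesions (12.0, 14.1 and 7.6), with overlapping ranges. The interferon genes' own mean was 8.41 to 9.06 in ablated against 10.88 to 11.46 in non-ablated lesions. This difference thus came with lower mean levels of the microglia, pan-macrophage, plasmacytoid dendritic cell and B cell lists. The part of any cell type in it was not tested. Age labels also differ between the groups; with the age label as a covariate the median log2 fold change was -3.52.

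**Figure D4:**
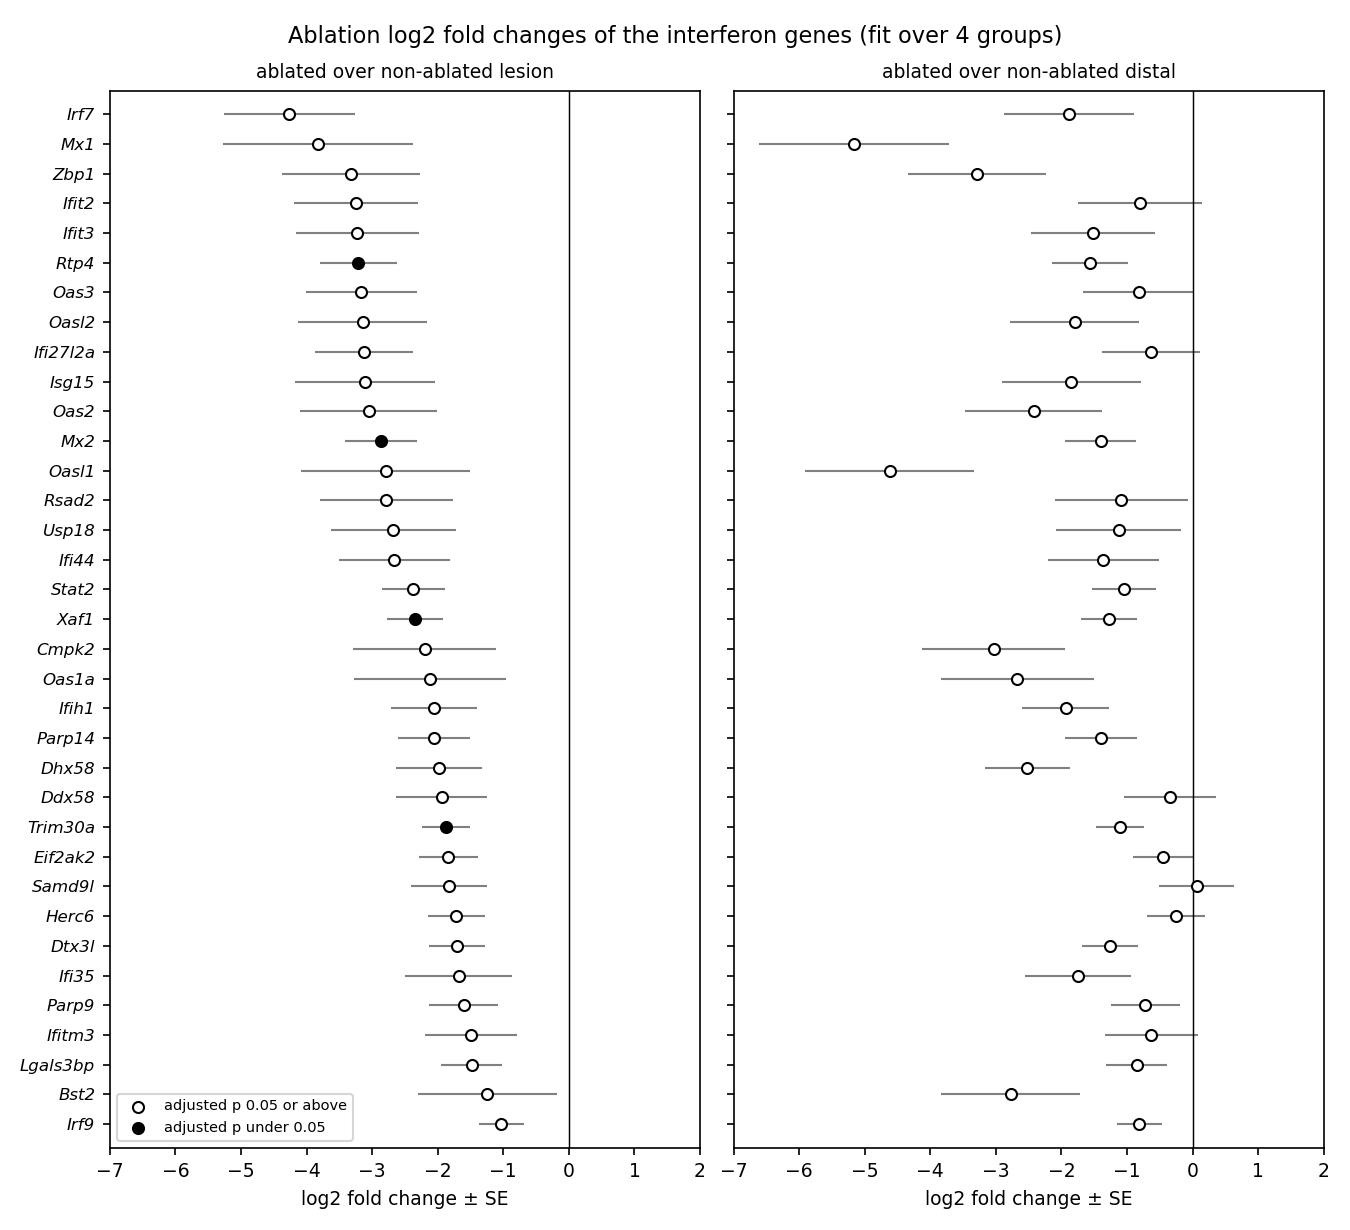
Log2 fold change ± SE of each of the 35 genes in ablated over non-ablated lesions (left) and in ablated over non-ablated distal tissue (right), from 1 limma fit over 4 groups. Filled points have an adjusted p under 0.05. All 35 points lie below 0 on the left with 4 filled, and 34 lie below 0 on the right with none filled.

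Distal tissue addressed whether the same genes differed away from the lesion. Of the 35 genes, 34 had lower fitted levels in ablated than in non-ablated distal tissue (49.1% of all genes tested did), with a median log2 fold change of -1.36, against 0.01 over all genes tested. None was called by limma, where 0.365% of all genes tested were called in either direction. An unadjusted p under 0.05 was reached by 18 in the lower direction, against 5.67% of all genes tested. edgeR called 1 member lower, Dhx58, where 0.377% of all genes tested were, and DESeq2 called 13, where 2.23% were. The groups were separate in 1 gene only, Cmpk2, against 3.1% of all genes tested, because non-ablated distal library 1 lay within or below the ablated range elsewhere.

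The count of calls turned on that library. Set against the 4 ablated distal libraries, library 1 was above all of them in 1 of the 35 genes, within their range in 19 and below all of them in 15, where 15.2% of all genes tested were above and 14.2% below. Library 3 was above all ablated distal libraries in 29 genes and library 5 in 35, where 18.7% and 21% of all genes tested were. Without library 1 the median log2 fold change was -2.17 and 12 members were called lower by limma, where 0.767% of all genes tested were, namely Irf9, Usp18, Isg15, Dtx3l, Dhx58, Oasl1, Ifit3, Mx1, Rsad2, Bst2, Trim30a and Xaf1. Without library 5 the median was -0.59 and none was called, where 0.185% of all genes tested were called lower. Without ablated distal library 11, Mx1 was called, where 0.473% were called lower.

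Levels of the 4 genes called in lesions show the pattern. Rtp4 had 229, 165, 284 and 97.4 normalized counts in ablated distal tissue, against 225, 909 and 748 in non-ablated distal tissue. Xaf1 had 775, 946, 561 and 348 in ablated and 643, 1974 and 2584 in non-ablated distal tissue. In both, library 1 was among the ablated libraries and libraries 3 and 5 were well above the highest ablated value. Mx2 had 568, 252, 698 and 229.7 in ablated and 515, 819.8 and 2577 in non-ablated distal tissue, and Trim30a had 709, 536, 818 and 495 against 607, 2176 and 1855. Their log2 fold changes ranged from -1.57 for Rtp4 to -1.10 for Trim30a, with adjusted p-values from 0.299 to 0.399 (limma).

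The extremes of the distal comparison were Mx1 and Samd9l. Mx1 had 8.31, 1.67, 383 and 67.0 normalized counts in ablated distal tissue, against 93.8, 2379.9 and 4642 in non-ablated distal tissue, and a log2 fold change of -5.16 ± 1.45 (SE, adjusted p = 0.195, limma). Both groups of Mx1 spanned a wide range, and ablated library 11 lay above non-ablated library 1. Samd9l, a translation inhibitor, had 151, 326, 266 and 141 in ablated and 56.9, 322 and 422 in non-ablated distal tissue, and stood at 0.06 ± 0.57, with a sign that turned under several settings.

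The spread between non-ablated distal pools was large for these genes. Library 5 over library 1 had a median ratio of 8.15 over the 35 genes, with a range from 2.46 for Ifi35 to 87.4 for Isg15, and 29 of 35 genes reached 4-fold, as did 5.81% of the 15100 genes tested that were above 0 in both. The transcriptome also varied more between non-ablated distal pools than between non-ablated lesion pools, with the median SDs of 0.53 and 0.24 given above. In comparison, the highest over the lowest library had a median ratio of 2.26 in ablated lesions and 1.40 in non-ablated lesions over the same 35 genes. Library 5 was above all 3 non-ablated lesion libraries in 12 of the 35 genes, library 3 in 2 and library 1 in none, where 39.4%, 39.5% and 40.5% of all genes tested were. The 12 genes of library 5 are therefore no more than the background share. The pan-macrophage marker level of library 5, 9.83, was below the 12.28 to 12.71 of non-ablated lesions, and its infiltrating monocyte marker level of 10.09 was above their 8.79 to 10.04. Its oligodendrocyte marker level of 17.27 was near the 17.35 and 17.39 of libraries 1 and 3 and above the 13.87 to 14.53 of non-ablated lesions. Whether any lesion tissue was in that pool is not given in the labels, so its values hold only for the pool as labelled.

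**Figure D5:**
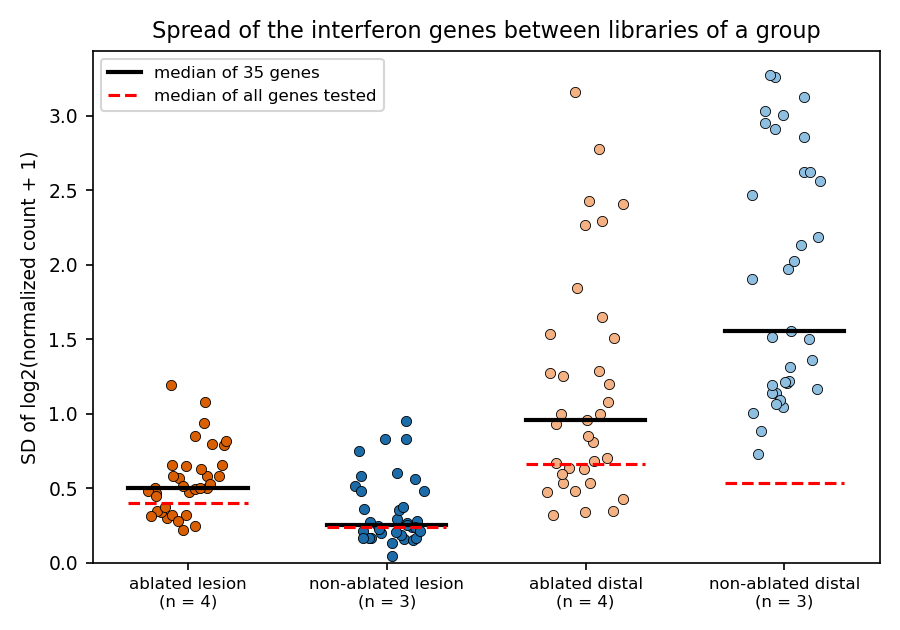
SD between libraries of a group of log2(normalized count + 1), with 1 point per gene for the 35 interferon response genes. Black lines mark the median over the 35 genes and dashed red lines the median over all genes tested. Non-ablated distal tissue has a median SD of 1.56 over the 35 genes, against 0.53 over all genes tested, while in non-ablated lesions the medians are 0.25 and 0.24.

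The third comparison set lesion against distal tissue within each genotype. All mice received LPC, so demyelination, the injection itself and a change in cell make-up cannot be told apart here. In non-ablated mice the mean pan-macrophage marker level was 12.4 in lesions and 9.8 in distal tissue. Oligodendrocyte markers were at 14.1 in lesions and 17.3 in distal tissue. In non-ablated mice 34 of the 35 genes were fitted higher in lesions (52.7% of all genes tested were), with a median log2 fold change of 1.76 against 0.07 over all genes tested. Called higher were 10 of 35, where 14.7% of all genes tested were: Herc6, Dtx3l, Parp9, Parp14, Eif2ak2, Oas3, Samd9l, Trim30a, Rtp4 and Lgals3bp. None was called lower, where 13.3% of all genes tested were. Separate groups were found in 17 of 35, against 26.1% of all genes tested. Lesion and distal tissue differed broadly over the transcriptome, with 28% of all genes tested called in either direction. The size of this difference rested on the distal pools. Without non-ablated distal library 1 the median log2 fold change was 0.67, with 26 of 35 higher (53.4% of all genes tested) and 7 called higher (12.3%). Without non-ablated distal library 5 it was 2.53, with 20 called (13.4%). Called higher were 6 without non-ablated lesion library 4 (9.84% of all genes tested), 7 without library 6 (10.5%) or library 2 (10.4%), and 17 without ablated distal library 9 (18.3%). edgeR gave a median of 1.05 with 30 of 35 higher and 7 called higher (12.6% of all genes tested), and DESeq2 one of 1.09 with 31 higher and 11 called (16.2%).

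Oas3 had 244, 507 and 671 normalized counts in non-ablated lesions, against 3.99, 9.92 and 31.8 in non-ablated distal tissue, all of the lesion libraries being higher. Its log2 fold change was 5.17 ± 0.91 (SE, adjusted p = 0.000679, limma). The level of 3 reads corresponds to 2.16 to 5.01 normalized counts, depending on the library. Of the distal values only the 3.99 of library 1 lay near it, at 2.995 there. Libraries 3 and 5 lay above theirs, at 3.305 and 3.817. Lgals3bp stood at 2.69 ± 0.50 (SE, adjusted p = 0.000977, limma). Mx2 and Xaf1, both called lower in ablated lesions, were near 0 here, at -0.19 ± 0.58 and 0.04 ± 0.46. For Mx2, non-ablated distal library 5 had 2577 normalized counts, more than any lesion library.

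In ablated mice 28 of the 35 genes were fitted higher in lesions (51.9% of all genes tested were), with a median log2 fold change of 0.70 against 0.05 over all genes tested. Called higher were 10 of 35, where 16.1% of all genes tested were: Dtx3l, Parp9, Dhx58, Oas1a, Oas3, Oasl1, Bst2, Trim30a, Ifi35 and Lgals3bp. Mx2 was called lower, at -1.66 ± 0.50 (SE, adjusted p = 0.0217, limma), where 13.8% of all genes tested were called lower. Ablated lesions had 66.4, 200.4, 131 and 129 normalized counts of Mx2, against 568, 252, 698 and 229.7 in ablated distal tissue, and these groups did not overlap. Separate and higher groups were found in 9 of 35, against 16.3% of all genes tested. Dtx3l, with 473, 522, 749 and 699 in ablated lesions against 189, 155, 259 and 171 in ablated distal tissue, had a log2 fold change of 1.66 ± 0.39 (SE, adjusted p = 0.00488, limma). Calls in either direction numbered 5 without ablated lesion library 14 (23.4% of all genes tested) and 7 without ablated distal library 7 (28%). They also numbered 7 without ablated lesion library 8 (27.1%) or 12 (26.1%), and 17 without non-ablated distal library 1 (29.9%). The median was 0.40 without ablated lesion library 12 and 1.09 without ablated distal library 11, and edgeR gave 0.45.

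Whether the lesion response itself differed by genotype was tested by the interaction, the lesion response of ablated minus that of non-ablated mice. None of the 35 genes was called by limma, edgeR or DESeq2, where 0.0128% of all genes tested were by limma and by edgeR and 0.601% by DESeq2. An unadjusted p under 0.05 was reached by 4 of 35, all negative, against 2.5% of all genes tested. The median was -1.07 with 28 of 35 negative (47.6% of all genes tested were), from Ifi27l2a at -2.49 ± 1.06 to Oasl1 at 1.83 ± 1.82 (SE). Without non-ablated distal library 1 the median was 0.05 and 19 of 35 were positive, so its direction rested on that pool. The ablation differences in lesions were thus not shown to differ from those in distal tissue.

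The genes that make and relay the signal were looked at in a list of 52 other interferon pathway genes. Of 18 type I interferon genes, 15 were listed at 0 in all 14 libraries and none had enough counts to be tested. The near-identical interferon alpha copies can lose reads that map to several of them, so a 0 there does not measure the family. Ifnb1 had 10.0, 0.798, 1.66 and 0 normalized counts in ablated lesions, against 2.42, 5.03 and 0 in non-ablated lesions. The 10.0 of ablated library 8 and the 5.03 of non-ablated library 4 were above the level of 3 reads. That level was 3.757 normalized counts in library 8 and 2.156 in library 4. The other lesion values were at or under it. In distal tissue it had 46.5 in ablated library 11 and was listed at 0 in the other 6. Ifng, whose product, interferon gamma, induces many of the same genes, was at most 7.84 in any library, so the type of interferon behind the 35 genes cannot be read from the ligands.

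Of the 52 pathway genes, 30 could be tested. In lesions none was called by limma or edgeR and 3 were by DESeq2 (Tlr3, Mb21d1 and Adar), where 1.09% of all genes tested were called lower. An unadjusted p under 0.05 was reached by 8 of 30, all lower, against 3.41% of all genes tested. The median log2 fold change was -0.52 with 27 of 30 negative, against 48.7% of all genes tested. Ifnar2, a subunit of the type I receptor, had 3377, 2591, 2735 and 3213 normalized counts in ablated lesions, against 3544, 3877 and 4858 in non-ablated lesions. Its groups were close but separate, with a log2 fold change of -0.45 ± 0.21 (SE, adjusted p = 0.682, limma).

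Tlr3, the endosomal receptor for double-stranded RNA, had 67.6, 153, 166 and 151 normalized counts in ablated lesions, against 412, 421 and 340.3 in non-ablated lesions, at -1.61 ± 0.42 (SE, adjusted p = 0.188, limma). Adar, the editing enzyme that keeps self RNA from being sensed, stood at -1.46 ± 0.41 (SE, adjusted p = 0.224, limma). Receptors and kinases thus had smaller fitted differences than most of the 35 response genes, and that contrast between the lists was not tested. The receptors' median was -0.25 over 6 genes, where the 35 response genes had -2.35.

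In distal tissue 2 of the 30 pathway genes were called lower in ablated mice by limma, where 0.326% of all genes tested were. With edgeR 3 of the 30 were called lower (0.377% of all genes tested) and with DESeq2 6 (2.23%), these 2 among them each time. Mb21d1, the DNA sensor cGAS, had 21.4, 18.4, 13.7 and 41.1 normalized counts in ablated distal tissue, against 162, 407 and 189.6 in non-ablated distal tissue. All 4 ablated libraries were below all 3 non-ablated ones, with a log2 fold change of -3.36 ± 0.44 (SE, adjusted p = 0.00483, limma). Irf8, a factor of microglia and other myeloid cells, had 1273, 1422, 1080.4 and 878 in ablated and 2287, 4927 and 4376 in non-ablated distal tissue, also without overlap, at -1.68 ± 0.28 (SE, adjusted p = 0.0237, limma). For these genes non-ablated library 1 was above every ablated library, unlike in 34 of the 35 response genes. Irf8 was not called without non-ablated distal library 3 or 5 or without non-ablated lesion library 2 or 4. Neither gene was called when the 7 distal libraries alone were fitted, where 0% of all genes tested were called. Nor was either called with the age label as a covariate, where 0.0384% of all genes tested were called lower. The 8 homeostatic microglia markers were at a mean log2 level of 9.12 to 9.30 in ablated and 10.60 to 11.49 in non-ablated distal tissue, although their summed counts overlapped (27100 to 170200 in ablated and 47190 to 95880 in non-ablated), and pan-macrophage markers at 7.30 to 8.56 in ablated and 9.50 to 9.96 in non-ablated distal tissue; the part of these cells in the values of Mb21d1 and Irf8 was not tested.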

How the data were processed

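RNA came from pooled, microdissected ventral spinal cord. Per the labels' protocols, extracts (RNeasy kit) were reverse-transcribed, then multiplied by displacement amplification (Qiagen single-cell kit), a step that can widen the spread of weakly expressed genes, and sequenced on a NextSeq. Named in the submitters' processing notes are mm10, bcl2fastq, DESeq2 and BWA 0.7.17.1. Which counter and annotation were used, and whether strand was, is not stated there, so reads of overlapping genes cannot be assigned with certainty.

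Values are a signal: per the labels, the authors divided gene counts by 1 DESeq2 size factor for each library and deposited the result. Division by the smallest step of a column returned whole reads for 100% of values (tolerance 0.01), but in non-ablated distal library 1 this step is too close to 1 to be told from rounding. A listed 0 allows up to 3 reads; this floor covers counting error alone, since amplified reads are not separate molecules.

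Sample titles gave the groups. limma 3.58.1 (R 4.3.3, trend) was fitted to log2(normalized count + 1) as 4 group means over 14 libraries, with 10 residual and 4.23 prior degrees of freedom, after a filter of 10 normalized counts in 3 libraries. The pseudocount understates fold changes of low genes. Benjamini-Hochberg adjustment ran over 15637 genes within a comparison, and an adjusted p under 0.05 was a call. The labels do not say which pools shared mice, so p-values measure the spread between these pools. Also run were TMM and quantile scaling, pseudocounts of 0.5 and 10, filters at 0 and 50, array weights, fits of the compared groups alone, the age label as a covariate, leaving out each library, leaving out non-ablated distal library 5 with non-ablated lesion library 6, and edgeR 4.0.16 and DESeq2 1.42.0 on recovered reads; a block of consecutive library numbers was added after seeing the data. The fit was tested on simulated data. RefSeq coordinates and promoters (GRCm38.p6) were joined by Entrez identifier for 24061 of 24116 genes.

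Members, lists and tests were chosen with earlier results of these data known, so nothing here is independent support for a pattern seen before. Each library's value is given for genes called in an ablation comparison, for the 2 genes of each role with the smallest p in lesions, and for the extremes of a stated range. Of the other pathway genes, those called in distal tissue and the 1 of each class with the smallest p in lesions were named, except 1 gene that is not reported here. Cx3cr1, Bst2, Ifitm3, Ifnb1, Ifng and genes given by a fold change alone were chosen after their values were seen.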

Additional observations from a re-analysis of the deposited data

Results flagged for a closer look

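In groups of 4 libraries, a library was taken as far from the others where its gap to the nearest one as a share of the group's range exceeded the 95% critical value of Dixon's test. This held for 8 of 70 combinations of gene and group. A chance rate of about 1 in 20 would need normal, independent values. These were untransformed counts of genes that are not independent, so an excess over chance cannot be read from them. In ablated distal library 11, Isg15 had 1647 normalized counts (next highest 351), Oas2 had 140 (next 30.4) and Oas3 had 22.8 (next 5.36). In ablated distal library 9, Parp9 had 925 (next 250.04), Ddx58 had 799 (next 282) and Ifitm3 had 17561 (next 8962). In ablated lesion library 8, Bst2 had 6654 (next 2477) and Ifitm3 had 23776 (next 10472). All 8 were the highest of their group.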

How the results depend on the processing

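In lesions the lower direction of all 35 genes held under every alternative run. The number called lower was 4 (0.262% of all genes tested). It was 33 with array weights (3.54%), 32 in the fit of the lesion libraries alone (2%) and 22 with DESeq2 (1.09%). It was 0 with the age label as a covariate (0.0128%). It was also 0 without non-ablated distal library 5 and non-ablated lesion library 6 together (0.0448%). With a library left out it was 0 to 12, where 0.032% to 0.576% of all genes tested were called lower. The median with age was -3.52. In distal tissue, where none was called, edgeR called 1 lower (0.377% of all genes tested) and DESeq2 13 (2.23%). Leaving out a library gave 0 to 12, where 0.0448% to 0.767% of all genes tested were called lower. For non-ablated lesion against distal tissue, 10 higher calls (14.7% of all genes tested) became 18 with quantile scaling (15.7%) and 22 with array weights (21.1%). With a library left out they became 6 to 20, where 9.84% to 18.3% of all genes tested were called higher. For ablated lesion against distal tissue, 11 calls in either direction (29.9% of all genes tested) became 5 to 17 with a library left out (23.4% to 31.5%). The interaction median of -1.07 ranged from -1.72 to 0.051 with a library left out. Samd9l in distal tissue (0.06) changed sign with age (-1.04), edgeR (-0.32), DESeq2 (-0.27) and left-out libraries (-0.83 to 0.607). Mx2 in non-ablated lesion against distal tissue (-0.19) changed sign with array weights (0.14), with a library left out (-0.690 to 0.470) and without libraries 5 and 6 together (0.48). The cause of these changes was not tested, except that fits of the lesion libraries alone leave out the spread of the distal pools. Distal and lesion libraries alternate in number, but the labels do not say that neighbours share mice, and their deviations from the group means correlated at -0.096 to 0.206 over all genes, above 0.1 in 4 of 7 pairs. A replicate block of consecutive numbers was chosen after seeing the data. With it, lesion against distal tissue gave 15 calls in non-ablated mice (26.1% of all genes tested in either direction) and 14 in ablated mice (28.5%). The interaction gave 0 calls, and Parp9 in ablated mice was no longer called (limma). Pools of 3 or 4 per group limit what these data can show. So do age labels that rise by 1 month with each library and may not be true ages. Counts near or under 3 reads in some libraries are a further limit, as for Oas3 and Mx1 in distal tissue and Ifnb1 in lesions.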
